A study of Mus musculus with 3 samples.

Results

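Genes for laminins, collagens, integrins, cadherins, protocadherins, the atypical cadherins Celsr and Fat, metalloproteinases of the ADAM and ADAMTS type, and plexins carried called 5-methylcytosine (m5C) sites in mouse oocyte and embryo mRNA. Members were the genes whose name in the lists began with Lama, Lamb, Lamc, Itga, Itgb, Pcdh, Celsr, Adam or Plxn, or with Col, Cdh or Fat and a digit, and Lama5 was left out. There were 54 such genes among 8353 listed, with 418 distinct sites among 40298. Col4a3bp and Adamtsl1 stand apart by function: Col4a3bp matched by name but encodes the ceramide transfer protein, while Adamtsl1 encodes a matrix glycoprotein that resembles ADAMTS proteases and lacks their catalytic domain.

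The lists came from RNA bisulfite sequencing of fully grown germinal vesicle (GV) oocytes, ovulated metaphase II (MII) oocytes and 1-cell embryos, with 1 library per stage. All were wild-type C57BL/6J material from females of 7 to 8 weeks. GV oocytes were taken 48 h after 10 IU of PMSG, MII oocytes 12 h after 5 IU of hCG that followed 10 IU of PMSG, and 1-cell embryos 24 h after hCG in females given 5 IU of each hormone and mated with C57BL/6J males, with about 200 embryos pooled. In every list, bisulfite had turned unmethylated C into U, and the m5C level of a site is the percentage of its reads that remained C. With 1 library per stage, a test on the reads compares 2 libraries and not the stages, and the library preparation and the stage cannot be told apart. The lists hold called sites only, with at least 20 reads, a level of at least 10% and at least 5 unconverted reads. A site missing from a list may therefore have been unmethylated, under these limits or not covered.

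Laminins are cross-shaped trimers of an alpha, a beta and a gamma chain that, with type IV collagen, build basement membranes. Integrins are the cell's receptors for such matrix, cadherins join cells to each other, ADAM and ADAMTS proteases cut surface and matrix proteins, and plexins are receptors for semaphorins. Fully grown oocytes no longer transcribe, so the transcripts of these genes in an MII oocyte are those stored earlier, and the mRNA of a 1-cell embryo is largely inherited from the egg. In mRNA, m5C is written mainly by NSUN2, at sites often followed by G-rich sequence (Type I), and by NSUN6, at a C within CUCCA or a close relative of it (Type II, counted here as CUCNA with the site as the first C).

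The sequences at the sites on which the results turn are shown first, 5′ to 3′ along the transcript, in DNA letters of GRCm38. Capitals mark the site C and the 4 bases after it. The first set holds sites chosen from those of Lamb1, Fat1, Adamtsl1, Itga6 and Plxna4 that were called at every stage. It does not hold every such site of these genes with a high level.

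Lamb1 chr12:31303084, exon 19, coding: gacacagtgaCAGGGgagtgt

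Lamb1 chr12:31320951, exon 26, coding: ggcagagaagCGGGTgaatgc

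Fat1 chr8:44952802, exon 1, coding: acgctattctCACAGatacgg

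Adamtsl1 chr4:86342769, exon 18, coding: gggacctctaCAGCAagcacc

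Itga6 chr2:71787248, exon 2, coding: atccggaaatCGGGGgatccc

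Plxna4 chr6:32163477, exon 28, coding: gaaccatgaaCATGGagacca

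Plxna4 chr6:32163495, exon 28, coding: gctttggcatCTGGTgaagaa

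The second set holds the 3 most methylated sites with at least 50 reads in each oocyte list, 4 sites in all, a Type II site and a site that was lower in the embryo.

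Cdh24 chr14:54637463, exon 7, coding: ggcctcggtaCGAGTgactgt

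Itgb3 chr11:104668310, exon 15, 3′ UTR: gtgcagtggtCAGAGctggag

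Pcdh9 chr14:93886862, exon 2, coding: gatccctattCAGGAgtcata

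Col6a4 chr9:106013527, exon 33, coding: gaacgctcatCTGGGtctcgg

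Itga9 chr9:118897427, exon 28, 3′ UTR, Type II: aagaaatcttCTCCAgatttt

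Col6a6 chr9:105774466, exon 8, coding: ggtcccaagaCGAGGtagctc

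Adhesion and matrix genes held 194 sites in 42 genes in GV oocytes, 233 sites in 44 genes in MII oocytes and 201 sites in 36 genes in 1-cell embryos. These were 1.22% (exact 95% interval 1.05 to 1.40) of all 15910 sites in GV oocytes, 1.13% (0.987 to 1.28) of 20694 in MII oocytes and 0.804% (0.697 to 0.923) of 24996 in embryos. The embryo's share lay below the intervals of both oocyte lists. Intervals here and below cover counting error only. Those of shares and medians treat sites as independent, although sites of the same transcript may not be. Those of site levels treat reads as independent, although reads without molecular identifiers are not independent molecules.

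Of the 252 annotated protein-coding genes with these prefixes, 54 were listed. The same share was not counted over all annotated genes, and listing also depends on coverage. By family, the laminins and plexins were listed most completely, with 7 of 10 and 7 of 9 genes. Celsr genes followed with 2 of 3 and Fat genes with 2 of 4. Listed collagens were 12 of 45, Col4a3bp among the 12, and integrins 8 of 31. Cadherins had 5 of 23, ADAM genes 4 of 33 and ADAMTS-type genes 4 of 24. Only 3 of 69 protocadherins were listed, and none of the 57 genes of the clustered kind. Plexins carried the most distinct sites, with 107, before collagens with 79, of which 7 were in Col4a3bp, and laminins with 69.

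**Figure D1:**
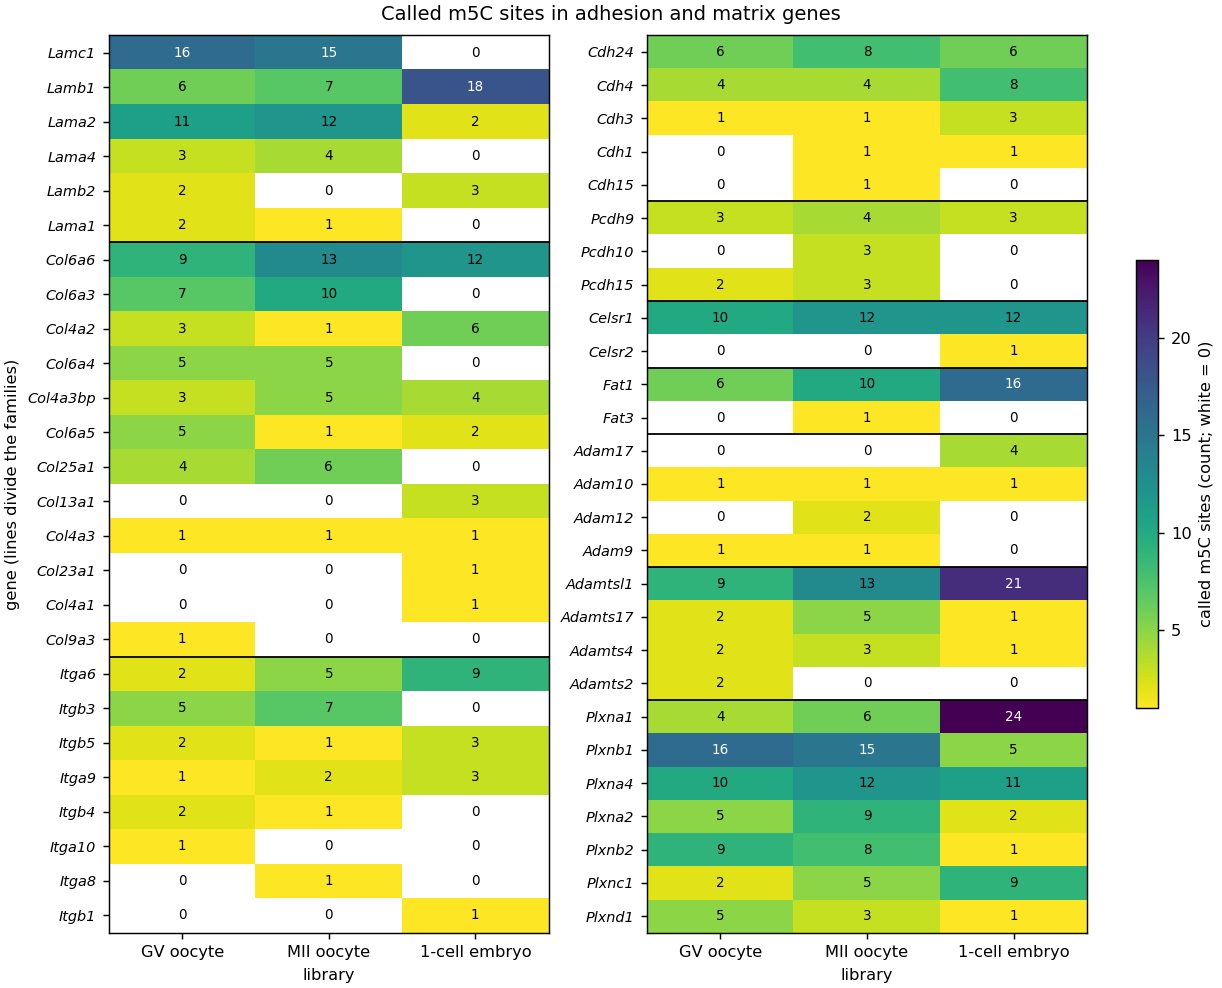
Heat map of the number of called m5C sites in 53 of the genes (rows, divided into families by lines) in each library (columns); white cells hold 0 sites. Lamb1, Plxna1 and Adamtsl1 have their highest counts in the embryo, with 18, 24 and 21 sites, whereas Lamc1 has 16 and 15 in the oocyte libraries and 0 in the embryo.

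The genes differed in which libraries listed them. The same split was not counted over all listed genes, and a gene without a called site may still be present. Sites were called in 28 genes at every stage, and 10 genes were listed in both oocyte libraries and not in the embryo: Lamc1, Lama4, Lama1, Col6a3, Col6a4, Col25a1, Itgb3, Itgb4, Pcdh15 and Adam9. Another 6 were listed in the embryo alone, namely Adam17, Celsr2, Col13a1, Col23a1, Col4a1 and Itgb1. MII oocytes alone listed Adam12, Cdh15, Fat3, Itga8 and Pcdh10, and GV oocytes alone listed Adamts2, Col9a3 and Itga10. Each of these 8 genes had 1 to 3 sites.

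Coverage at the called sites was similar in the oocyte libraries and lower in the embryo. The median site had 92 reads in GV oocytes, 93 in MII oocytes and 61 in embryos, beside 121, 107 and 58 reads over each whole list. Read counts at sites called in a pair of libraries moved further: over the 59 sites shared by MII oocytes and embryos, coverage in the embryo was 0.22 times that in MII oocytes at the median site (0.32 times over all 8015 shared sites). From GV to MII oocytes the same ratio was 0.80 over 149 sites (0.87 over 12954). Fewer molecules of a transcript and a shallower or smaller library cannot be told apart from these files, and the total reads of each library are unknown.

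**Figure D2:**
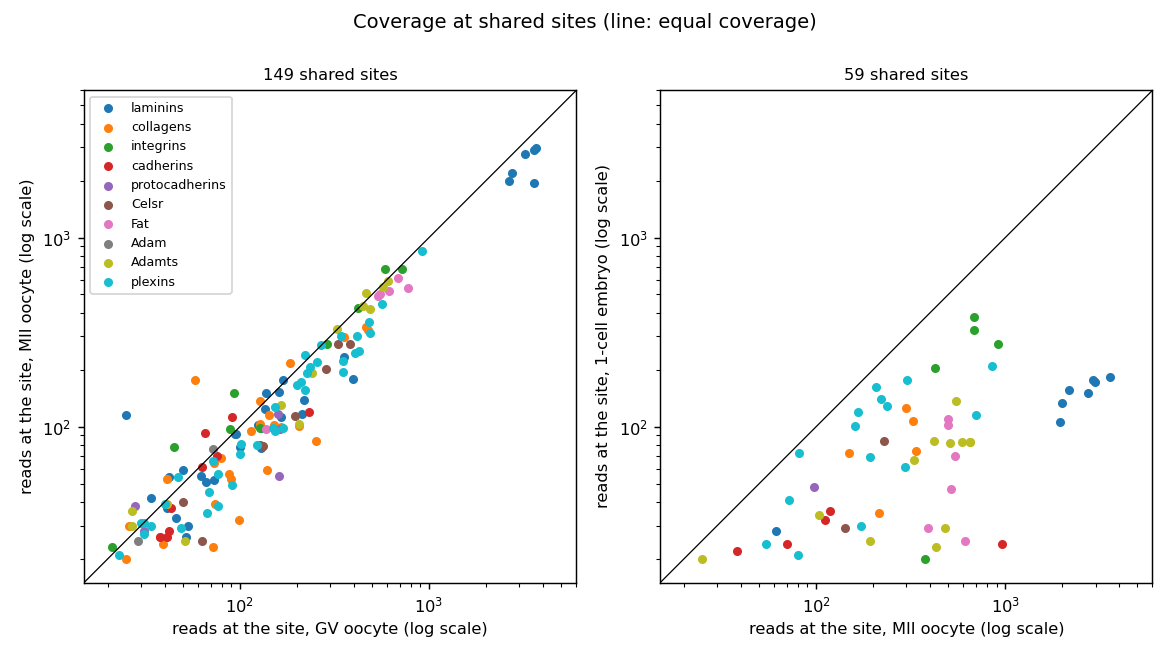
Reads at shared member sites on log axes, MII oocyte against GV oocyte (left, 149 sites) and 1-cell embryo against MII oocyte (right, 59 sites), coloured by family; the line marks equal coverage. Points stay near the line between the oocyte libraries, and all points lie below it in the embryo, with the Lamb1 sites farthest to the right at 1942 to 3578 MII reads.

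The median m5C level of member sites was 18.4% (16.3 to 21.1) in GV oocytes, 19.0% (17.9 to 21.7) in MII oocytes and 25% (21.5 to 27.6) in embryos, beside 19.5%, 19.8% and 23.8% over the whole lists. Levels of 50% or more were found at 16 sites (8.25%) in GV oocytes, 25 (10.7%) in MII oocytes and 35 (17.4%) in embryos. Over the whole lists these shares were 11.04%, 11.85% and 16.71%, so the share was highest in the embryo there too. The members' share was below that of the whole list in both oocyte libraries and slightly above it in the embryo. The higher median in the embryo went with low coverage. Among sites with at least 50 reads the medians were 17.4%, 18.1% and 18.3%, so the libraries were then within 1 percentage point of each other.

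The laminins gave both the deepest sites and the largest contrast between genes. Lamb1 (chr12:31265234-31329644, plus strand), the beta-1 chain of the laminins of early basement membranes, had 6 sites in GV oocytes, 7 in MII oocytes and 18 in embryos, all in coding sequence. Its median coverage was 3396.5 reads in GV oocytes, 2754 in MII oocytes and 147.5 in embryos. At the sites shared with the embryo, coverage was 17.2 times higher in MII oocytes than in embryos, against a ratio of 1.25 between GV and MII oocytes. All 6 sites of the GV list were called in every library.

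At the Lamb1 site with the highest level, chr12:31303084, 1292 of 3223 reads were unconverted in GV oocytes, 1466 of 2754 in MII oocytes and 116 of 150 in embryos. The levels were 40.1% (38.4 to 41.8), 53.2% (51.3 to 55.1) and 77.3% (69.8 to 83.8), and no 2 intervals overlapped. The level rose from GV to MII oocytes (Fisher's exact test on reads, Benjamini-Hochberg adjusted over all shared sites, p = 1.07e-21) and from MII oocytes to embryos (adjusted p = 2.98e-08 by the exact test). The site at chr12:31320951 went from 24.1% through 31.7% to 53.4%, with adjusted p-values of 1.01e-09 and 6.21e-08 by the exact test. The third largest change was at chr12:31302659, with 13.2%, 17.3% and 37.7%.

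The other Lamb1 sites called at every stage moved less. Levels at chr12:31303011 were 14.6%, 22.2% and 26.1%, those at chr12:31307078 were 15.9%, 19.0% and 24.8%, and those at chr12:31320100 were 20.0%, 22.6% and 26%. All 6 were called higher in MII than in GV oocytes, and 4 of the 7 sites shared with the embryo were called higher there. Each of the other 11 Lamb1 sites was called in the embryo alone, at 10.1% to 22.6% and 82 to 284 reads. Among them, chr12:31302629 (11.8%) and chr12:31302695 (18.4%) lie 30 and 36 bases from chr12:31302659, where the GV oocyte library had 3570 reads. The reads on the uncalled C itself are not given in the oocyte lists.

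Lamc1 (chr1:153218922-153332786, minus strand), the gamma-1 chain that pairs with beta-1 in most laminins, had 16 sites in GV oocytes, 15 in MII oocytes and none in the embryo. Median coverage was 78.5 and 91 reads, far below that of Lamb1. Its most methylated deep sites, chr1:153240346 and chr1:153240460, had 55.6% and 52.8% in GV oocytes and 47.2% and 49.3% in MII oocytes. At chr1:153251981 the level fell from 32 of 137 reads (23.4%) to 16 of 151 (10.6%), with an adjusted p of 0.0258 by the exact test. In the 3′ UTR, chr1:153219801 rose from 10 of 42 reads (23.8%) to 28 of 54 (51.9%), with an adjusted p of 0.0350 by the exact test. The median difference over the 11 sites shared by the oocytes was -0.61 percentage points.

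Lama2, the alpha-2 chain of muscle and nerve basement membranes, had 11, 12 and 2 sites. Its site chr10:27366119 had 10 of 61 reads unconverted in MII oocytes and 22 of 28 in embryos, a rise from 16.4% to 78.6% (adjusted p = 1.68e-07, exact test) that rests on 28 embryo reads. Lama4 had 3, 4 and 0 sites, Lama1 had 2, 1 and 0, and Lamb2 had 2, 0 and 3. The alpha-1 chain, which joins beta-1 and gamma-1 in the first basement membranes of the embryo, thus had few sites.

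**Figure D3:**
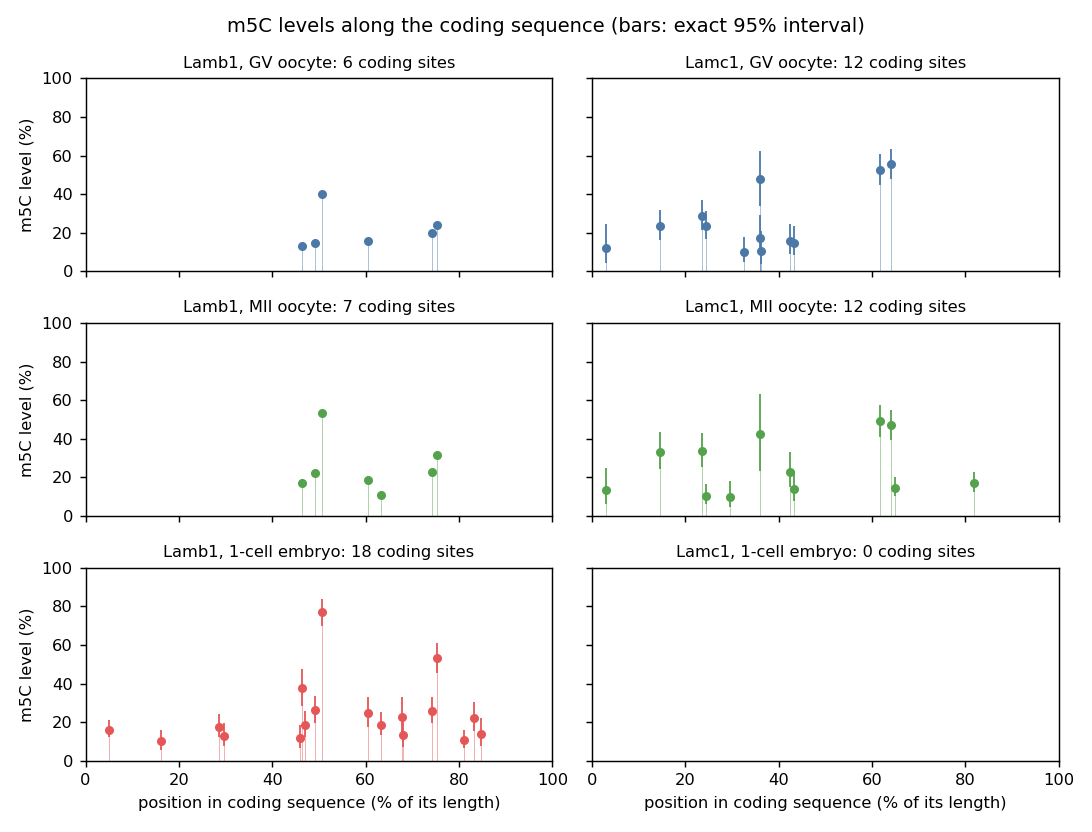
m5C level (%) with exact 95% intervals at each coding-sequence site of Lamb1 (left) and Lamc1 (right) against the position in the coding sequence (% of its length), 1 row per library. In Lamb1 the site at 40.1%, 53.2% and 77.3% stands above the rest in every row and the embryo shows 18 sites, whereas Lamc1 shows 12, 12 and 0 coding sites.

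Among the collagens the type VI alpha chains, which form beaded filaments close to basement membranes, held most sites. Col6a6 had 9, 13 and 12 sites, Col6a3 had 7, 10 and 0, Col6a4 had 5, 5 and 0, and Col6a5 had 5, 1 and 2. At Col6a4 chr9:106013527, 54 of 72 reads (75%) were unconverted in GV oocytes and 12 of 23 (52.2%) in MII oocytes (adjusted p = 0.199, exact test). Col6a6 and Col6a5 lie near each other on chromosome 9 and are similar in sequence. For 4 embryo sites of Col6a6 and both embryo sites of Col6a5, the converted 51-base sequence around the site occurs in the other gene as well, so reads there could come from either gene. Without those 6 sites, Col6a5 had none left in the embryo. No such match in another gene was found for any other member site.

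Col6a6 also carried the only member site called lower in embryos than in MII oocytes. Levels were lower in embryos at 8 of the 59 shared member sites, and the others of these 8 did not pass the test. At chr9:105774466, 111 of 477 reads were unconverted in GV oocytes, 109 of 325 in MII oocytes and 22 of 107 in embryos. The level went up from 23.3% to 33.5% (adjusted p = 0.0121, exact test) and down to 20.6% (adjusted p = 0.0230, exact test), and its intervals in GV oocytes and embryos overlapped. At Col6a6 chr9:105784048, by contrast, levels were 102 of 465, 95 of 336 and 37 of 74 reads, with a rise into the embryo (adjusted p = 0.00152, exact test).

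Type IV collagen, the sheet-forming collagen of basement membranes, was represented by Col4a2 with 3, 1 and 6 sites, Col4a3 with 1 at each stage, and Col4a1 with 1 in the embryo. The 6 embryo sites of Col4a2 had 28 to 47 reads and levels of 35.3% to 66.7%. Its site chr8:11433795 fell from 33 of 58 reads (56.9%) in GV oocytes to 32 of 177 (18.1%) in MII oocytes (adjusted p = 1.69e-06, exact test), while its coverage went up. Col13a1, a transmembrane collagen, was listed in the embryo alone with 3 sites at 59.1%, 60% and 85.7% on 20 to 22 reads. Col25a1, another membrane-bound collagen, had 4 and 6 sites in the oocyte lists and none in the embryo.

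Col4a3bp, which belongs here by name only, had 3, 5 and 4 sites. Its 3′ UTR site at chr13:96639708 rose from 26 of 150 reads (17.3%) in MII oocytes to 43 of 73 (58.9%) in embryos, with an adjusted p of 6.81e-09 by the exact test. Among member sites with at least 50 reads in both libraries, this was the largest rise into the embryo. Without Col4a3bp, the other 53 genes had 191, 228 and 197 sites.

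Among integrins, Itga6 (chr2:71745616-71858416, plus strand), the alpha-6 chain of laminin-binding integrins of the egg surface, was the deepest. It had 2, 5 and 9 sites with median coverages of 650.5, 681 and 272 reads. At chr2:71787248, 286 of 718, 307 of 680 and 160 of 326 reads were unconverted, or 39.8%, 45.1% and 49.1%. The adjacent intervals overlapped, and only the difference between GV oocytes and embryos passed the test (adjusted p = 0.00974, exact test). The 5′ UTR site at chr2:71787094 had 13.0%, 16.2% and 28.8%, and rose into the embryo (adjusted p = 8.97e-06, exact test). In exon 13, chr2:71838310 rose from 94 of 913 to 75 of 272 reads (adjusted p = 2.73e-10, exact test).

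A further Itga6 site, chr2:71787258, was called in the embryo alone with 87 of 311 reads (28.0%). It lies 10 bases from chr2:71787248, which had 718 reads in GV oocytes and 680 in MII oocytes. Itga9, the alpha-9 chain, carried the deepest Type II site of the set, in its 3′ UTR. There 131 of 422, 150 of 426 and 78 of 204 reads were unconverted (31.0%, 35.2% and 38.2%), with overlapping intervals at all stages and no difference that passed the test.

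The beta chains were shallower and differed from each other. Itgb3, which pairs with alpha-v in receptors for RGD-bearing matrix proteins, had 5 and 7 sites in oocytes and none in the embryo, and 5 of the 7 lay in the 3′ UTR. Its site chr11:104668310 was nearly fully methylated, with 84 of 89 reads (94.4%) in GV oocytes and 85 of 97 (87.6%) in MII oocytes, and those intervals overlapped. Itgb5 chr16:33885078 fell from 36 of 93 reads (38.7%) to 15 of 150 (10.0%) between the oocyte stages (adjusted p = 6.28e-06, exact test). Itgb1, the beta-1 chain shared by many matrix receptors, had a single site, in the embryo, with 12 of 69 reads (17.4%).

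Cadherins gave few reads and several high levels. Cdh24, a classical cadherin that binds catenins, had 6, 8 and 6 sites with median coverages of 66, 70 and 29.5 reads. At chr14:54637463, 62 of 76 reads were unconverted in GV oocytes and 67 of 70 in MII oocytes (81.6% and 95.7%, adjusted p = 0.0455, exact test). Another site, chr14:54632275, had 42 of 91, 69 of 112 and 31 of 32 reads, and was higher in the embryo than in MII oocytes (adjusted p = 0.000185, exact test). Cdh24 shared 5 sites between the oocyte lists and 2 between MII oocytes and embryos.

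Cdh1, which encodes E-cadherin, the adhesion protein of the cleaving and compacting embryo, had 1 site, chr8:106604346 in exon 2. It was not listed in GV oocytes, had 127 of 964 reads (13.2%) in MII oocytes and 12 of 24 (50%) in embryos (adjusted p = 9.18e-05, exact test). Coverage there was 40.2 times higher in MII oocytes than in embryos. P-cadherin, encoded by Cdh3, had 33 of 233, 33 of 119 and 25 of 36 reads at chr8:106552928, and each later library was higher than the one before (adjusted p = 0.0226 and 4.41e-05, exact test). Cdh4, or R-cadherin, had 4, 4 and 8 sites on median coverages of 42.5, 32 and 62.5 reads, medians that are over different sites in each library. At its 1 site shared by MII oocytes and embryos, coverage was 38 and 22 reads.

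Pcdh9, a nonclustered protocadherin, had 3, 4 and 3 sites, and Pcdh10 and Pcdh15 were listed in oocytes only. Levels at Pcdh9 chr14:93886862 rose from 102 of 161 reads (63.4%) to 47 of 55 (85.5%) between the oocyte stages (adjusted p = 0.0153, exact test). Its site chr14:93887171 had 61 of 163, 41 of 97 and 27 of 48 reads, and the step from GV oocytes to embryos passed the test narrowly (adjusted p = 0.0445, exact test).

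Celsr1 and Fat1, giant cadherins of planar polarity and of growth control, behaved differently. Celsr1 (chr15:85898929-86033777, minus strand) had 10, 12 and 12 sites, of which none was called at every stage. Of its 12 embryo sites, 10 were called in the embryo alone. Its deepest oocyte sites, chr15:85926260 (73 of 383 and 77 of 274 reads) and chr15:85963248 (120 of 332 and 133 of 274), rose between the oocyte stages with adjusted p-values of 0.0420 and 0.0154 by the exact test. Neither was listed in the embryo.

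Fat1 (chr8:44935447-45052257, plus strand) had 6, 10 and 16 sites, all coding, and kept 4 of them throughout. Median coverage was 583, 499 and 45 reads. At chr8:44952802 levels were 381 of 776 (49.1%), 329 of 540 (60.9%) and 61 of 70 (87.1%), with adjusted p-values of 0.000377 and 3.72e-05 by the exact test. At chr8:45036931 they were 48.6%, 51.3% and 83.0%, and the difference between the oocyte stages did not pass the test. The site chr8:45040694 had 15.4%, 19.0% and 20.9%, with overlapping intervals. Over the 6 sites shared by MII oocytes and embryos, 5 were called higher in the embryo.

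Adamtsl1 (chr4:85514172-86428385, plus strand) had 9, 13 and 21 sites, and 8 were called at every stage, the most of any member. Its median coverage was 449, 432 and 77 reads. At chr4:86342769, 188 of 466, 321 of 511 and 61 of 82 reads were unconverted (40.3%, 62.8% and 74.4%). The rise between the oocyte stages passed the test (adjusted p = 1.95e-10, exact test), and the intervals of MII oocytes and embryos overlapped. At chr4:86341216 the oocyte levels were 15.8% and 18.2% and that of the embryo was 84.0%, from 21 of 25 reads (adjusted p = 1.11e-09 against MII oocytes, exact test).

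The proteases themselves had fewer sites. Adam10 and Adam17 encode the main sheddases of Notch, growth factor ligands and cadherins. Adam17 was listed in the embryo alone, with 4 sites at 31.8% to 59.1% on 22 to 50 reads. Adam10 had 1 site per list, of which the 5′ UTR site chr9:70679169 was shared by the oocytes with 17 of 72 and 17 of 76 reads. Adamts17 had 2, 5 and 1 sites and Adamts4, an aggrecanase, had 2, 3 and 1. Adam12 had 2 sites in MII oocytes and Adamts2, which trims procollagen, had 2 in GV oocytes.

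The plexins divided by gene more than by class. Plxna1 had 4, 6 and 24 sites, Plxnc1 had 2, 5 and 9, and Plxna4 had 10, 12 and 11. In the other direction, Plxnb1 had 16, 15 and 5 sites, Plxnb2 had 9, 8 and 1, Plxna2 had 5, 9 and 2, and Plxnd1 had 5, 3 and 1. Plxna1 had 20 sites called in the embryo alone, at 10.1% to 65.4%. One of them, chr6:89356636 (19.0%), is 2 bases from chr6:89356638, which had 923 reads in GV oocytes.

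At chr6:89356638 Plxna1 had 99 of 923, 136 of 850 and 80 of 209 reads unconverted, or 10.7%, 16% and 38.3%. Both steps passed the test (adjusted p = 0.00958 and 1.86e-10, exact test). Plxna4 kept much of its coverage: at its 5 shared sites the MII oocyte coverage was 1.71 times that of the embryo, against 17.2 for Lamb1. In its exon 28, the sites chr6:32163477 and chr6:32163495 had 53 of 257, 76 of 221 and 85 of 140 reads, and 81 of 236, 87 of 208 and 117 of 163 reads. Both rose into the embryo, to 60.7% and 71.8% (adjusted p = 7.69e-06 and 8.20e-08, exact test).

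The Plxna4 site chr6:32163495 has a counterpart in Plxna2, shown here because the local sequences are almost the same. It was chosen after its values were seen.

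Plxna2 chr1:194806377, exon 28, coding: ggtttggcatCTGGTgaagaa

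The Plxna2 site was listed in MII oocytes alone, with 10 of 81 reads (12.3%, interval 6.08 to 21.5), against 41.8% (35.0 to 48.8) at the Plxna4 site in the same library. The intervals did not overlap. Elsewhere in Plxna2, chr1:194789809 rose from 22 of 101 to 41 of 81 reads between the oocyte stages (adjusted p = 0.000995, exact test), and the 5′ UTR site chr1:194620195 fell from 30 of 100 reads in GV oocytes to 5 of 41 in embryos (adjusted p = 0.0471, exact test).

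Plxnb2, a receptor for class 4 semaphorins, is a case in which no deep oocyte site passed the test. At chr15:89161038 levels were 335 of 485 reads (69.1%) and 212 of 312 (67.9%), and at chr15:89167942 they were 342 of 565 (60.5%) and 246 of 446 (55.2%). None of its 8 shared sites passed the test between the oocyte stages, and the median difference was -2.01 percentage points. Lamb1, in the same pair of libraries, had all 6 shared sites called higher, but on far more reads. Median coverage at the shared sites was 3396.5 and 2467.5 reads in Lamb1, and 416 and 248 in Plxnb2. The test calls smaller differences at deeper sites. Lamb1 chr12:31320100 passed with a difference of 2.64 percentage points, and Plxnb2 chr15:89155680 did not pass with -5.54. The genes were not compared at equal depth. In Plxnb1, chr9:109102028 had 79 of 123, 62 of 80 and 21 of 21 reads, and the embryo was above MII oocytes with an adjusted p of 0.0398 by the exact test. In Plxnc1, chr10:94944264 went from 44.5% to 59.3% (adjusted p = 0.0344, exact test) and stood at 47.5% in the embryo.

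Taking all shared sites, levels were higher in the later library of each pair. From GV to MII oocytes, 31 of 149 member sites were higher and 4 were lower by Fisher's exact test with adjustment over all 12954 shared sites. Over all genes 19.6% of sites were higher and 0.965% lower, so the members' share of rises (20.8%) was near that of the lists. Their share of falls was 2.68%, but it rests on 4 sites and was not tested against that of the lists. From MII oocytes to embryos 27 of 59 member sites were higher and 1 was lower, against 51.3% and 2.45% over all genes. Between GV oocytes and embryos 24 of 42 were higher and 1 was lower, against 66.1% and 1.05%.

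**Figure D4:**
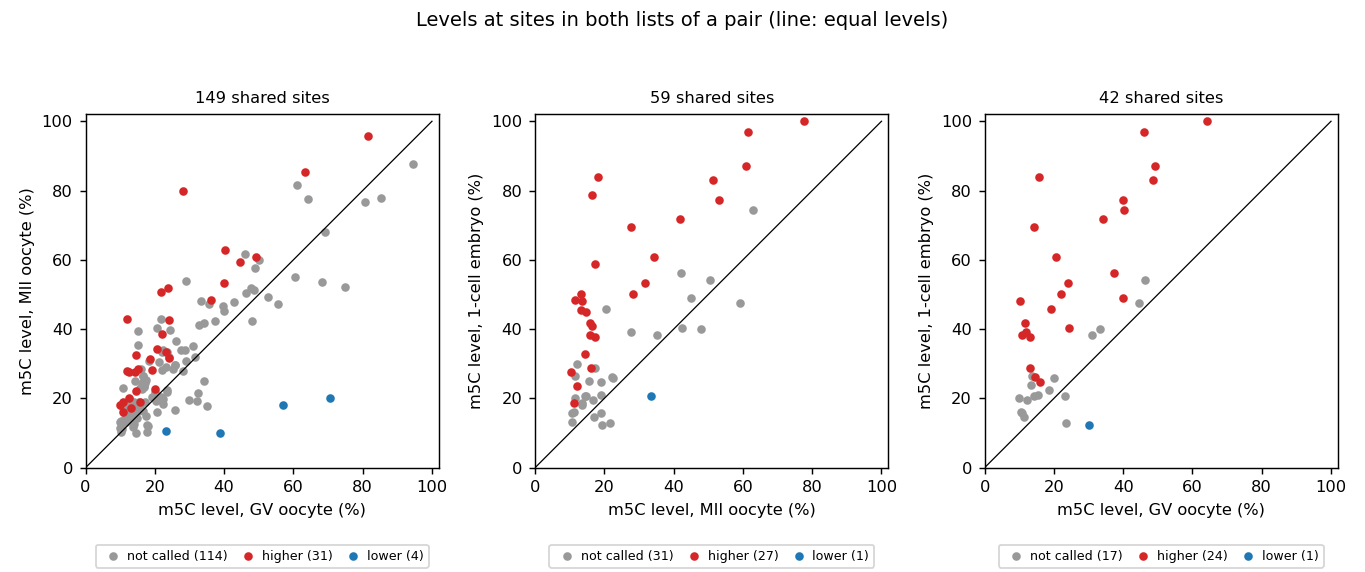
m5C level (%) of member sites in the later against the earlier library of each pair, for 149, 59 and 42 shared sites; red and blue points passed Fisher's exact test at an adjusted p under 0.05 as higher or lower, grey points did not, and the line marks equal levels. Called points are mostly above the line, with 31, 27 and 24 higher and 4, 1 and 1 lower.

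These counts depend on the reads. With all reads divided by 5, as if each molecule had been read 5 times, 1, 2 and 11 member sites were higher over the pairs in the same order, against 0.672%, 7.34% and 21.1% of all sites, and 0 were lower in any pair (0.0232%, 0.0624% and 0.0772% of all). With at least 50 reads in both libraries, 28, 16 and 15 were higher, against 24.5%, 52.5% and 69.3%, and 3, 1 and 0 were lower, against 1.01%, 3.15% and 1.28%. Under Bonferroni adjustment 6, 14 and 16 were higher, against 4.64%, 21.8% and 35.9%, and 2, 0 and 0 were lower, against 0.232%, 0.299% and 0.17%. The 6 that were higher from GV to MII oocytes under Bonferroni adjustment were 3 sites of Lamb1 and 3 of Adamtsl1.

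The median level differences were 4.97 percentage points (3.17 to 6.42) from GV to MII oocytes, 11.6 (5.87 to 21.7) from MII oocytes to embryos and 14.3 (8.09 to 27.6) from GV oocytes to embryos. Over all genes they were 4.87, 12.7 and 19.2. Among sites with at least 50 reads in both libraries the members' medians were 5.12, 6.21 and 10.4, against 4.96, 10.0 and 16.3 over all genes, so the members' difference from MII oocytes to embryos was smaller at the deeper sites. A shared site had to reach the 10% limit in both lists, so sites that dropped under it are not in these counts. It also needed at least 5 unconverted reads, so with under 50 reads only levels above 10% could be listed. Under 50 reads were found at 44.3% of member sites in embryos, 26.3% in GV oocytes and 28.3% in MII oocytes. The part of this limit in the rises into the embryo was not tested. The 4 called lower between the oocyte stages were in Col4a2, Itgb5, Lamc1 and Plxnd1, the last with 24 of 34 and 6 of 30 reads.

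Sites called at every stage numbered 40, in 16 genes. At 31 of them (77.5%, 61.5 to 89.2) the level was higher at each step, and at 2 it was lower at each step. Over all 6145 such sites the share was 67.4%. The median levels of the 40 sites were 20.3%, 25.2% and 40.1%, beside 21.6%, 28.1% and 45.5% over all genes. Adamtsl1 with 8, Lamb1 with 6, Plxna4 with 5 and Fat1 with 4 sites made up much of this set.

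**Figure D5:**
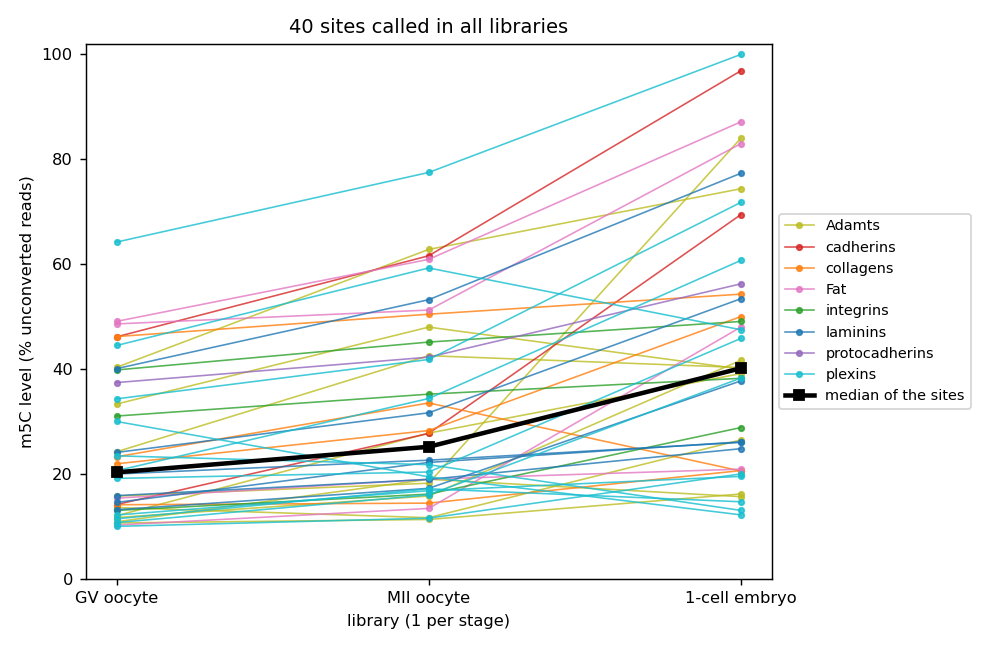
m5C level (% unconverted reads) of the 40 sites called in all libraries, 1 line per site coloured by family, with the median in black. Most lines go up at both steps and the median goes from 20.3% through 25.2% to 40.1%, while 8 lines, of plexins, ADAMTS-type genes and Col6a6, go down into the embryo.

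Fewer of the oocyte sites were called again in the embryo than in the lists as a whole. Of 149 sites called in both oocyte libraries, 40 (26.8%) were also in the embryo list, against 47.4% over all genes. Coverage moved with this: the median MII oocyte coverage was 332.5 reads for the sites called again and 78 for the others, and over all genes it was 242 and 73. The part of coverage in the difference from the whole list was not tested. Of the 109 sites not called again, 74 were in genes that still had a called site in the embryo. This was not counted over all genes, so it cannot be set against the whole lists.

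The embryo list in turn held 140 member sites that neither oocyte list had, or 33.5% of the 418, against 41.3% over all genes. Of these, 129 (92.1%) were in genes with an oocyte site elsewhere, against 88.4% over all genes. Their median level was 21% on a median of 53.5 reads. In 13 cases, in 8 genes, such a site lay within 50 bases of a site with at least 100 reads in an oocyte library. How often this was so over all genes was not counted.

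Member sites lay in coding sequence more often than those of the whole lists. The share was 84.0% (78.1 to 88.9) in GV oocytes, 81.1% (75.5 to 85.9) in MII oocytes and 85.6% (79.9 to 90.1) in embryos, against 68.1%, 68.6% and 73.3%. The 5′ UTR held 3.61%, 3.43% and 3.48% of member sites, against 11.2%, 11.3% and 10.3%. The 3′ UTR held 12.4%, 14.6% and 10.4%, against 18.7%, 18.1% and 14.6%. The part of coding sequence length in this was not tested.

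The sequence after the site was close to that of the whole lists. Type II sites numbered 13 (6.70%), 8 (3.43%) and 7 (3.48%), against 5.91%, 5.03% and 3.44%. Among Type I sites of members, 66.9%, 67.1% and 61.9% had a G at the second base after the site, against 68.9%, 68.4% and 61.2% over the lists and 29.7% of all C in the members' transcripts. CNGG, with the site as its first base, was found at 43.1%, 42.7% and 35.6% of members' Type I sites, against 42.6%, 42.1% and 33.2% over the lists.

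Collagens are counted here with Col4a3bp, both in sites and in transcripts. In collagens CNGG was found at 56.8% (39.5 to 72.9), 54.8% (38.7 to 70.2) and 46.4% (27.5 to 66.1) of Type I sites. Collagen coding sequence repeats glycine codons, and CNGG followed 13.7% of all C in the collagen transcripts, against 9.22% in those of all members. Plexins had 31.8%, 32.1% and 29.4%. These intervals overlap, so the families were not separated at this number of sites.

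Neighbouring cytosines were called separately in several transcripts. In Celsr1, chr15:85979139 and chr15:85979141, 2 bases apart, had 32.8% and 16.5% in GV oocytes and 41.2% and 26.6% in MII oocytes. In Lamc1, chr1:153249698 had 48.1% and the C beside it 17.5% in GV oocytes. In Adamtsl1, chr4:86342769 and chr4:86342772 had 74.4% and 26.4% in the embryo. Other neighbouring pairs were close, as at Adamtsl1 chr4:86415631 and chr4:86415632 with 13.6% and 10.6% in MII oocytes, and at Col6a6 chr9:105774505 and chr9:105774515 with 12.8% and 13.2% in the embryo.

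Other genes of adhesion and matrix biology outside these prefixes were counted from a fixed list. Of 57 such genes, 26 were listed, 20 in GV oocytes, 21 in MII oocytes and 21 in embryos, with 54, 71 and 99 sites. How many of all annotated genes were listed was not counted, and a gene without a called site may still be present. Median levels were 18.2%, 18.8% and 23.8%. The embryo thus held the most sites of this list, as it did of all sites (15910, 20694 and 24996 in the same order). The member genes had most in MII oocytes. Of the shared sites on this list, 5 of 45 were called higher and none lower from GV to MII oocytes, against 19.6% and 0.965% of all sites. From MII oocytes to embryos 13 of 29 were higher and 2 lower, against 51.3% and 2.45%.

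The catenins on this list, which tie cadherins to actin, all had called sites. Jup, or plakoglobin, had 9, 10 and 9 sites, Ctnnb1, or beta-catenin, had 2, 2 and 7, and Ctnnd1, or p120 catenin, had 3, 3 and 6. Ctnna1, or alpha-catenin, had 3, 3 and 2. At focal adhesions Actn1 had 3, 5 and 11 sites, Pxn, or paxillin, had 1, 5 and 8, Vcl, or vinculin, had 4, 3 and 4, and Tln2, a talin, had 3, 8 and 1. Nectin2, a cell junction protein, had 7, 5 and 0. Dag1, the dystroglycan receptor for laminin, had 2, 1 and 8 sites, and Cd9, the tetraspanin of the egg surface, had 1, 1 and 3. Nidogens, perlecan and fibronectin, the other core parts of basement membranes and interstitial matrix, were not listed at any stage.

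The cell types were checked with markers. Of 13 oocyte markers, 7 were listed in GV oocytes, 10 in MII oocytes and 12 in embryos, with up to 16549 reads at a site. Of 12 granulosa and cumulus markers, 1 (Nr5a2), 2 (Amh and Cyp19a1) and 1 (Nr5a2) were listed, with at most 125 reads. Of 6 theca and stroma markers only Star was listed, in embryos with 28 reads, and none of 5 blood markers was. Of 6 sperm markers Prm2 was listed in GV oocytes (43 reads) and MII oocytes (34 reads), and of 5 oviduct epithelium markers Krt8 was listed in embryos (20 reads). A marker without a called site may still be present, so the part of other cells in the members' sites was not tested.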

How the data were processed

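RNA bisulfite sequencing lists of GV oocytes, MII oocytes and 1-cell embryos were used as deposited, with 1 library per stage. The authors trimmed reads with cutadapt 1.13 and Trimmomatic 0.36, mapped them to GRCm38 with HISAT2 2.10 and Bowtie2 2.2.9, and removed genes that resist conversion. Tools and versions follow the submitters' processing notes. For each called site the authors deposited the coverage (a count of reads), the m5C level as a fraction and a p-value. The labels name polyadenylated RNA and the study's methods ribosomal RNA depletion, and the hCG dose for MII oocytes also differs between them, so label values are given. The 1-cell list differs at many sites from a table issued with the paper, and the deposited list was used.

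Unconverted reads were recovered as level times coverage (within 2.90e-05 of a whole number). Sites were annotated with GENCODE M21 on GRCm38. Shared sites were compared with a two-sided Fisher's exact test on reads with Benjamini-Hochberg adjustment over all shared sites of the pair (scipy 1.17.1), threshold 0.05. The test was tried on simulated independent reads. These held no duplicate reads, differences between libraries or calling limits, so the effect of those was not tested. Shares and levels carry exact Clopper-Pearson 95% intervals and medians order-statistic intervals. Precision follows the reads at a site, from 20 upwards. Members and gene lists were chosen with earlier results of these data known. Named were, per family, up to 3 genes with most sites; per pair, the 3 largest called rises and falls with at least 50 reads; sites at every stage with at least 100 reads; and the 3 highest and 3 deepest sites per list. Other named sites were chosen after their values were seen. One member gene is counted in the totals and not reported here by name. Alternatives were coverage, level and read-depth settings, Bonferroni adjustment and sets of members.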

Additional observations from a re-analysis of the deposited data

How the results depend on the processing

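With 1 library per stage there is no replicate check, and depth limits the embryo values most, since its sites are shallow. With 100 or more reads required, there were 92 sites in 22 genes in GV oocytes, 104 in 26 genes in MII oocytes (median level 17.5%) and 47 in 11 genes in embryos (median 19.0%). At least 50 reads left 112 sites in 15 genes in embryos, with a median of 18.3%. A level of at least 20% left 89, 109 and 123 sites, with medians of 30.0%, 33.3% and 38.3%, which follows from the setting itself. From GV to MII oocytes, with reads divided by 5 as if each molecule had been read 5 times, 1 site was higher and 0 lower, and with Bonferroni adjustment 6 and 2. From MII oocytes to embryos these were 2 and 0 with divided reads and 14 and 0 with Bonferroni adjustment, and 16 were higher at 50 reads or more in both. From GV oocytes to embryos 11 were higher and 0 lower with divided reads, 15 and 0 at 50 reads or more, and 0 were lower with Bonferroni adjustment. Divided reads and the 50-read minimum lose calls by having fewer reads or sites, and Bonferroni adjustment by its stricter correction, by construction. At the named sites, 31 calls lost significance with divided reads and 18 under Bonferroni adjustment, while 42 and 55 results kept their side of the threshold. Leaving out the 6 sites shared with another gene, chosen after seeing the data, left 195 sites in 35 genes in embryos. For the counts, medians and shares, the other alternatives stayed within 1.5 times the count or within the interval, and none turned a direction. No paired analysis was possible because each stage has 1 library.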
